A study of Mus musculus with 2 samples.

Results

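The vascular endothelial growth factor (VEGF) and angiopoietin system was followed in single cells of mouse brain carrying G422 glioma. It was taken as 9 genes, matched by symbol to the 27998 genes of both count matrices. These were the VEGF ligands Vegfa, Vegfb, Vegfc and Pgf, the receptors Kdr and Flt1, the co-receptor Nrp1, the angiopoietin Angpt2 and its receptor Tek. All 9 were found in both. Ligands were read in tumour-like and myeloid cells and receptors in endothelial-like cells, in each library by itself.

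VEGFA is the main growth signal for blood vessels, released by cells short of oxygen, and it acts on endothelium through the receptor tyrosine kinase KDR (VEGFR2). FLT1 (VEGFR1) binds VEGFA, VEGFB and PGF tightly but signals weakly, so that it can act as a decoy, while NRP1 is a co-receptor that also binds semaphorins. The receptor TEK (Tie2) holds vessels in a quiescent state, and ANGPT2, stored in and released by endothelium, usually opposes that signal at sites of vessel growth.

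Cells of brains of Kunming mice were sequenced in 2 droplet libraries with the 3' version 3 chemistry. The LTS library came from mice that lived more than 100 days after combined therapy, then received the same tumour again in the other side of the brain and are said to have outlived 100 days once more. Untreated mice harvested on day 7 after inoculation of G422TN cells, a line also labelled G422-GBM, gave the control library. Day 7 is given for the LTS harvest too, but the text leaves unclear from which inoculation it counts, and neither the drugs of the combined therapy nor the number of mice per library is stated. Both suspensions were passed through a 40 µm filter and taken from the interphase of 70% and 37% Percoll, a density step aimed at immune cells, so the number of tumour and vessel cells recovered is not their number in the tissue. Each group being 1 library, there was no replicate and no test between LTS and control. All intervals are 95% intervals that cover counting error of unique molecular identifiers (UMIs) only, not differences between animals or preparations.

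The libraries held 149413534 UMIs (LTS) and 165796852 UMIs (control). Barcodes with at least 1000 UMIs, at least 300 genes and at most 15% mitochondrially encoded UMIs were kept, which left 4835 LTS cells with a median of 18779 UMIs and 8310 control cells with a median of 14889.5 UMIs. Both matrices list the same barcodes, and 13 barcodes were kept in both libraries, where 5.91 would be shared at random. Clustering without the 9 genes gave 23 clusters, named by marker genes. Tumour markers, 6 to 10 of 10, were carried by 10 clusters with 2591 LTS and 5262 control cells. These had 0.631 to 1.16 CPM of Y-linked transcripts, where CPM are UMIs of a gene scaled to 1000000 UMIs in all. These markers came from earlier results of the same data and are no independent evidence of identity. The clusters led by Postn, Aspn and Dmp1 also carried collagen genes of fibroblasts, and they stayed in the class because they lacked the Y-linked transcripts of host cells. The microglia-like class had 629 LTS and 762 control cells and the monocyte-like class 229 and 417. The endothelial-like class was 1 cluster of 74 LTS and 143 control cells in which 14 of 15 endothelial markers, among them Cldn5 and Egfl7, met the marker limits, with 94.1 CPM (LTS) and 80.6 CPM (control) of Y-linked transcripts and 4.07 and 4.66 CPM of the leukocyte gene Ptprc.

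Sequences before the transcription start are shown for Vegfa and for the genes of the 3 receptor kinases Kdr, Flt1 and Tek, since the tumour and endothelial results turn on them. They are 250 bases from RefSeq (GRCm38.p6), 5' to 3' on the gene's strand, and 8 of the 9 genes had an entry. In the Vegfa windows capitals mark ACGTG on either strand, a form of the core letters to which hypoxia-inducible factors bind. Other forms were neither marked nor counted. One window precedes the gene start (chr17:46032378-46032627, minus strand) and the other a RefSeq transcript start inside the gene (chr17:46025164-46025413, minus strand).
Vegfa gene start: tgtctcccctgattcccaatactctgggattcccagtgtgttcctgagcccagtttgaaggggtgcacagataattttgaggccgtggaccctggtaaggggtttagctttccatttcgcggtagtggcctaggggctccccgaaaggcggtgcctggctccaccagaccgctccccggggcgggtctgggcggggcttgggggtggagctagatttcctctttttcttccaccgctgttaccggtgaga
Vegfa inner start: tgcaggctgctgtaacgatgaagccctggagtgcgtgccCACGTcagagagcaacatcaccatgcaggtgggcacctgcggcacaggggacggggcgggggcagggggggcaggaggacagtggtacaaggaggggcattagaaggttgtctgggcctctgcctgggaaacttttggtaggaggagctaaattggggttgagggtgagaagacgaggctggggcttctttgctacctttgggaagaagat
In the receptor windows capitals mark GGAA on either strand, the core letters of ETS factors, a family that includes regulators of endothelial genes. They are at chr5:75978456-75978705 (Kdr, minus strand), chr5:147726012-147726261 (Flt1, minus strand) and chr4:94739039-94739288 (Tek, plus strand).
Kdr: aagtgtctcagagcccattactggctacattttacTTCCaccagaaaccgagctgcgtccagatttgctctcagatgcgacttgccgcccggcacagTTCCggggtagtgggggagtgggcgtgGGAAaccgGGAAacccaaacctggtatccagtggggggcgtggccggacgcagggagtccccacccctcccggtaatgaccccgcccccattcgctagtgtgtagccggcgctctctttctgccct
Flt1: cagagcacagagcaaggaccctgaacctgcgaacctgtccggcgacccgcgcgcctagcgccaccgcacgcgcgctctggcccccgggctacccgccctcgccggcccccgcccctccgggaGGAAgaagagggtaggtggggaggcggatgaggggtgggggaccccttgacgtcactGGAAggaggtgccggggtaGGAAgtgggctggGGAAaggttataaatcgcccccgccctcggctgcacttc
Tek: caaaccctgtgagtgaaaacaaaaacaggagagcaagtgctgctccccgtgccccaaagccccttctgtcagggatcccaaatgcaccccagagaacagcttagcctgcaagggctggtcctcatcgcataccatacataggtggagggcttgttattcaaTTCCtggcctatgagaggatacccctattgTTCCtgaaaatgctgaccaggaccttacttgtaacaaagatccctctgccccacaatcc
The window at the Vegfa gene start held no ACGTG and the inner one held 1, and 16.6% of all 32851 RefSeq windows of this length hold it. GGAA was found 4 times before Kdr, 4 times before Flt1 and 2 times before Tek, which sets none of them apart, since 93.4% of windows hold it, at a median of 3 matches. The longer run AGGAAG, which contains GGAA, was found 2 times before Flt1 and not before Kdr or Tek, and 29.5% of windows hold it. A match describes these letters and does not show that a factor binds.

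Most Vegfa UMIs lay in tumour-like cells, which also held most UMIs of all genes, and the Vegfa level of these cells was slightly higher in LTS. Vegfa (ENSMUSG00000023951, mm10 chr17:46016993-46032369, minus strand) was at 91.4 CPM (interval 89.6 to 93.2, 9774 UMIs) in LTS and 76.6 CPM (74.99 to 78.3, 8492 UMIs) in control tumour-like cells. The LTS level was 1.19-fold the control level (1.16 to 1.23), so the counting intervals did not overlap, while the difference was under the 1.5-fold used here to count genes. Of the 9 genes, 4 had at least 20 CPM in either library of tumour-like cells and none was at least 1.5-fold higher or lower in LTS on log2(CPM + 5), where 0.0156% of all 6422 such genes were higher and 0.405% lower. Tumour-like cells gave 94.9% of the Vegfa UMIs of all kept LTS cells and 93.8% of those of control cells. Of the UMIs of all genes they held 106944252 of 122981808 in LTS and 110843893 of 125688128 in control. A gene at equal levels in all classes would therefore also have most of its UMIs there. Among the 5 classes with at least 40 cells in each library, monocyte-like cells came next by CPM, then endothelial-like, T cell-like and microglia-like cells. Endothelial-like cells had 27.9 CPM (LTS) and 25.2 CPM (control) and T cell-like cells 18.3 and 16.6 CPM, and the intervals of these classes overlapped within each library, as did those of control T cell-like and microglia-like cells.

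Free RNA, measured in barcodes with 1 to 100 UMIs, was richer in Vegfa than any cell class, at 130 CPM in LTS, against 125 CPM in control. An estimated 9.97% of the UMIs of LTS tumour-like cells and 23.3% of those of control tumour-like cells were free RNA. With this amount taken off, Vegfa was at 87.1 CPM in LTS, against 61.8 CPM in control, a log2 ratio of 0.50 against 0.25 without that step. The median depth of tumour-like cells also differed, at 40569 UMIs in LTS and 20138 UMIs in control. After thinning every cell to 1000 UMIs, Vegfa was found in 8.84% of LTS tumour-like cells (7.77 to 9.998) and 7.41% of control ones (6.72 to 8.15), and without thinning in 82.8% and 67.7%. Endothelial-like cells, at median depths of 16200 and 11680 UMIs, had thinned shares of 2.70% and 2.10%. Free RNA was put at 31.2% of their UMIs in LTS and 40.4% in control, which alone would bring 40.6 and 50.6 CPM of Vegfa. Both lie above the counted intervals, 20.6 to 37.0 CPM and 18.9 to 32.8 CPM, so the estimate overshoots for Vegfa there. The Vegfa of endothelial-like cells cannot be told from free RNA.

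**Figure D1:**
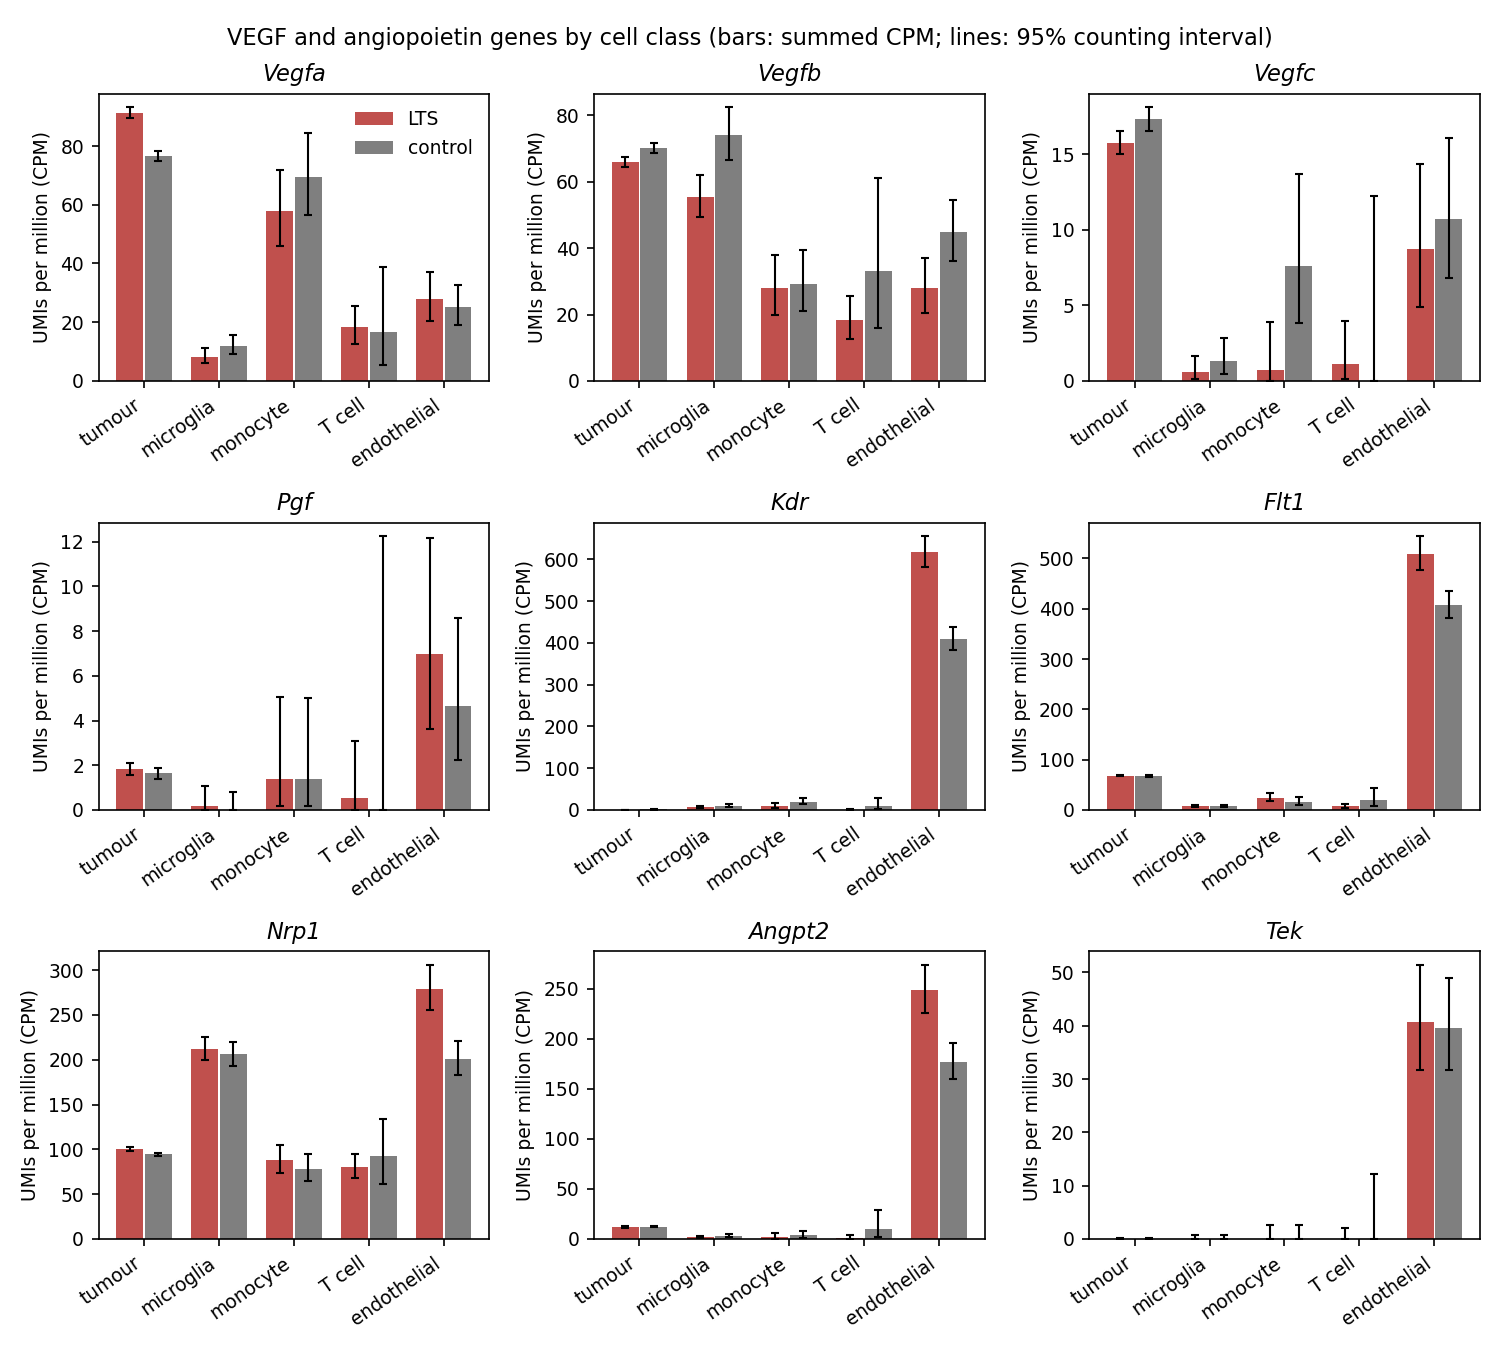
Summed level in CPM (vertical axes, each with its own scale) of the 9 genes in 5 cell classes, LTS in red and control in grey, with lines for the exact 95% counting interval. Kdr and Tek stand out in endothelial-like cells, Vegfa is highest in tumour-like cells (91.4 and 76.6 CPM), and Nrp1 is found in all 5 classes, highest in endothelial-like and microglia-like cells.

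Among the 10 tumour-like clusters, 1 stood above the others in Vegfa in both libraries. Cluster 7, led by Il11, Grem1 and Areg, which encode a cytokine, a BMP antagonist and an EGF receptor ligand, had 168 CPM (LTS) and 113 CPM (control). The other 9 clusters lay between 49.0 and 101 CPM. Cluster 7 held 8.92% of LTS and 9.98% of control tumour-like cells, yet 19.3% and 16.7% of their Vegfa UMIs. It was also where LTS and control differed most, at 1.49-fold (1.39 to 1.60). Vegfa was higher in LTS in 10 of 10 clusters, with an interval above 1 in 6 of them, and in cluster 17, led by Iigp1 and Gbp2, the ratio was 1.00 (0.770 to 1.31). The clusters are parts of the same 2 libraries and are not independent observations. How many other genes were higher in all 10 was not counted. Without cluster 7, an alternative added after seeing the data, the class was at 1.14-fold (1.11 to 1.18).

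The highest level of Vegfa and the highest sum of a list of hypoxia and glycolysis genes lay in different tumour-like clusters. This list of 34 genes summed highest in cluster 5, at 6236 CPM (LTS) and 5948 CPM (control), and cluster 7 had 5623 and 5521 CPM. Abundant genes weigh most in such a sum, and single genes can peak elsewhere. Ndrg1, a list gene named here after its rank was seen, was among the 10 leading genes of cluster 7. Those of cluster 5 were histone genes. Across the 10 clusters, which share their libraries and so their free RNA, Vegfa and the list had a Pearson r of 0.50 in LTS and 0.62 in control (Spearman 0.55 and 0.72). Between libraries the list as a whole hardly moved in tumour-like cells. Of its 22 genes with at least 20 CPM in either library, none was 1.5-fold higher or lower on log2(CPM + 5), beside the shares of all genes above. Without the pseudocount Hk2 was past 1.5-fold lower. The list's median log2 ratio was 0.01 against -0.01 for all genes. Pgk1, a glycolytic kinase, was 1.25-fold higher (1.21 to 1.30) and P4ha1, a collagen prolyl hydroxylase, 1.08-fold (1.05 to 1.12). Hk2, the hexokinase that starts glycolysis, was at 22.0 CPM in LTS, against 34.1 CPM in control (0.644-fold, 0.612 to 0.679, or -0.54 on log2(CPM + 5)) and Aldoa, an aldolase, at 0.832-fold (0.819 to 0.846). Hif1a, named here after its values were seen, encodes the oxygen-sensitive subunit of the factor behind this response and was at 212 CPM in both libraries.

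**Figure D2:**
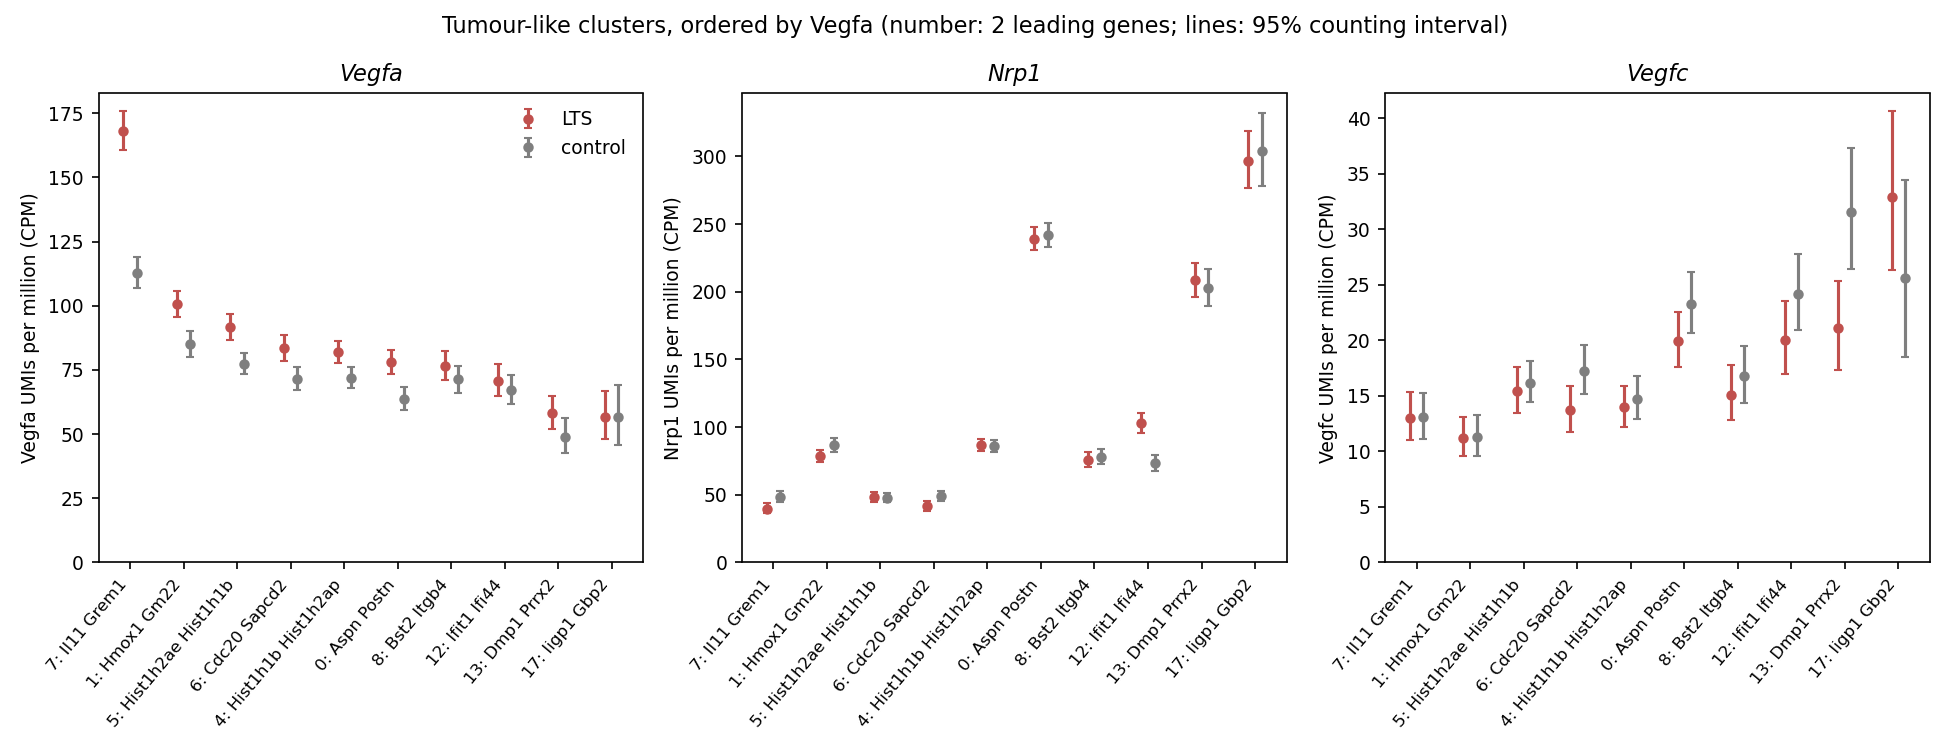
Vegfa, Nrp1 and Vegfc in CPM (vertical axes) in each of the 10 tumour-like clusters, ordered by Vegfa and labelled by number and 2 leading genes, LTS in red and control in grey, with exact 95% counting intervals. Vegfa peaks in cluster 7, at 168 (LTS) and 113 (control) CPM, whereas Nrp1 peaks in clusters 17, 0 and 13, at 203 to 304 CPM.

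The myeloid cells differed from each other in Vegfa. Monocyte-like cells had 57.9 CPM in LTS, against 69.5 CPM in control, from 83 and 100 UMIs, a ratio of 0.833 with an interval of 0.615 to 1.13 that takes in 1. Microglia-like cells had 8.29 CPM (44 UMIs) and 12.1 CPM (55 UMIs), a ratio of 0.688 (0.452 to 1.04). Cluster 3 held 405 LTS and 755 control cells of the microglia-like class and cluster 15 held 224 and 7, and in cluster 3 alone, a comparison added after seeing the data, the Vegfa ratio was 0.585, with an interval of -1.45 to -0.12 on the log2 scale. Free RNA was put at 11.8% of LTS and 33.7% of control monocyte-like UMIs, and taking it off left 48.2 CPM in LTS, against 41.1 CPM in control, so the direction turned. In microglia-like cells the same step took off more Vegfa than was counted, so their Vegfa cannot be told from free RNA. After thinning, 6.55% of LTS and 6.95% of control monocyte-like cells had a Vegfa UMI, against 0.954% and 1.05% of microglia-like cells.

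Vegfb, a ligand of FLT1 with little effect on vessel growth, had similar levels in tumour-like and microglia-like cells. In tumour-like cells it was at 65.8 CPM (LTS) and 70.2 CPM (control), 0.938-fold (0.908 to 0.969). Microglia-like cells had 55.4 and 74.1 CPM, 0.748-fold (0.637 to 0.877). Vegfb and Nrp1 were the 2 of 9 genes with at least 20 CPM there, neither passed 1.5-fold, and of all 6406 such genes 1.23% were higher and 2.56% lower. In cluster 3 alone the ratio was 0.797. Endothelial-like cells had 27.9 CPM from 48 UMIs in LTS and 44.7 CPM from 96 UMIs in control, 0.623-fold (0.431 to 0.890). By an estimate that overshot for Vegfa in this class, free RNA alone would bring 15.8 CPM in LTS and 23.4 CPM in control. The part of free RNA in this Vegfb ratio was not tested. Monocyte-like cells had 27.9 and 29.2 CPM, with an interval of 0.604 to 1.51 around a ratio of 0.956, and 24.9 and 14.6 CPM with free RNA taken off, so the direction turned. That turn rests on the free RNA estimate, which overshot for Vegfa in other classes.

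Vegfc, the ligand of the lymphatic receptor FLT4, had 96.3% (LTS) and 94.6% (control) of its UMIs in tumour-like cells, the class with most UMIs of all genes. Its level there was 15.7 CPM in LTS, against 17.3 CPM in control, 0.909-fold (0.851 to 0.971). It was higher in LTS in 1 of 10 clusters, with an interval below 1 in 2 others, and cluster 13, led by Dmp1 and Prrx2, had the lowest ratio among the clusters at 0.669 (0.515 to 0.866). Microglia-like cells had 3 and 6 UMIs of Vegfc, and monocyte-like cells 1 in LTS and 11 in control. Pgf, placental growth factor, was sparse everywhere. Tumour-like cells had 1.83 CPM (LTS) and 1.63 CPM (control), from 196 and 181 UMIs, a ratio of 1.12 (0.912 to 1.38). Endothelial-like cells had 6.97 and 4.66 CPM, from 12 and 10 UMIs, and microglia-like cells 1 and 0 UMIs, where 3 UMIs would be 0.565 and 0.657 CPM.

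**Figure D3:**
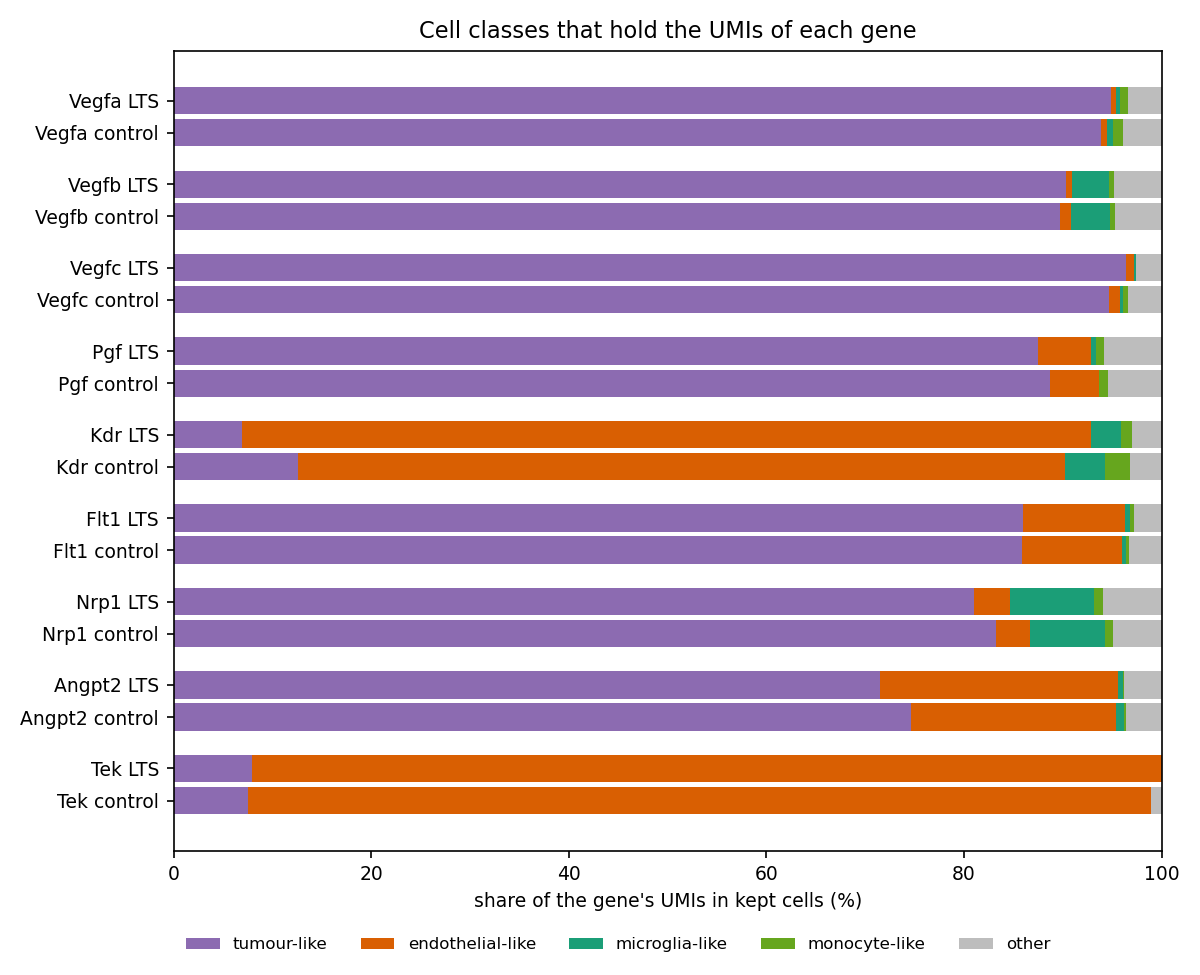
Share of each gene's UMIs (percent, horizontal axis) that falls in each cell class among kept cells, with LTS above control for each gene. Ligand bars are mostly tumour-like, Kdr and Tek bars mostly endothelial-like (85.9 and 77.6% for Kdr, 92.1 and 91.4% for Tek), and Flt1 and Nrp1 bars mostly tumour-like. Of the UMIs of all genes, tumour-like cells held 106944252 of 122981808 in LTS and 110843893 of 125688128 in control.

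Endothelial-like cells of LTS had higher levels of Kdr, Flt1, Nrp1 and Angpt2 than those of control, and Tek was about equal. Kdr (ENSMUSG00000062960, mm10 chr5:75932827-75978458, minus strand), the main signalling receptor, was at 617 CPM (581 to 656, 1063 UMIs) in LTS and 409 CPM (382 to 437, 878 UMIs) in control, 1.51-fold (1.38 to 1.65). Flt1 (ENSMUSG00000029648, mm10 chr5:147561604-147726011, minus strand) was at 509 CPM (476 to 544) and 408 CPM (382 to 436), 1.25-fold (1.14 to 1.37). Nrp1 (ENSMUSG00000025810, mm10 chr8:128358604-128503363, plus strand) was at 279 CPM (255 to 306) and 201 CPM (183 to 221), 1.39-fold (1.22 to 1.58). For each of these 3 genes the counting intervals of the libraries did not overlap. At clustering resolution 2 the interval of the Nrp1 ratio, -0.02 to 0.40 on the log2 scale, took in equality.

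Of the 9 genes, 7 had at least 20 CPM in either library of this class. Kdr was the 1 gene at least 1.5-fold higher in LTS on log2(CPM + 5), just past that fold at 0.59, and Vegfb the 1 gene at least 1.5-fold lower, at -0.60. Free RNA was not taken off in this count, and its part in the Vegfb ratio was not tested. Among all 6868 such genes 2.36% were higher and 3.29% lower. Kdr was at 1.46-fold without the cell with most Kdr UMIs in each library.

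The LTS cells of this class were also richer in endothelial transcripts as a whole. The 15 endothelial markers summed to 10228 CPM in LTS, against 7998 CPM in control, all 15 were detected in both libraries, and the 10 tumour markers summed to 599 CPM in LTS, against 1104 CPM in control. Scaled to the endothelial marker sum in place of all UMIs, Kdr was 1.18-fold, Flt1 0.976-fold, Nrp1 1.09-fold and Angpt2 1.10-fold, with intervals on the log2 scale of 0.11 to 0.37 for Kdr, -0.17 to 0.10 for Flt1, -0.07 to 0.31 for Nrp1 and -0.07 to 0.34 for Angpt2. This scale lowers the log2 ratio of each of these genes by the same 0.35, the difference in the marker sum, and of these 4 intervals that of Kdr lay above equality. With free RNA taken off, Kdr was at 894 CPM in LTS, against 682 CPM in control (1.31-fold) and Flt1 at 724 and 663 CPM (1.09-fold). The free RNA estimate behind these values overshot for Vegfa in this class in both libraries, so the size of the drop in these ratios depends on it. Markers of pericytes and smooth muscle, cells that lie on vessels, summed to 153 CPM in LTS, with 10 of 11 found, and to 71.3 CPM in control, with 8 of 11 found, and the part of such cells in the receptor levels was not tested.

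**Figure D4:**
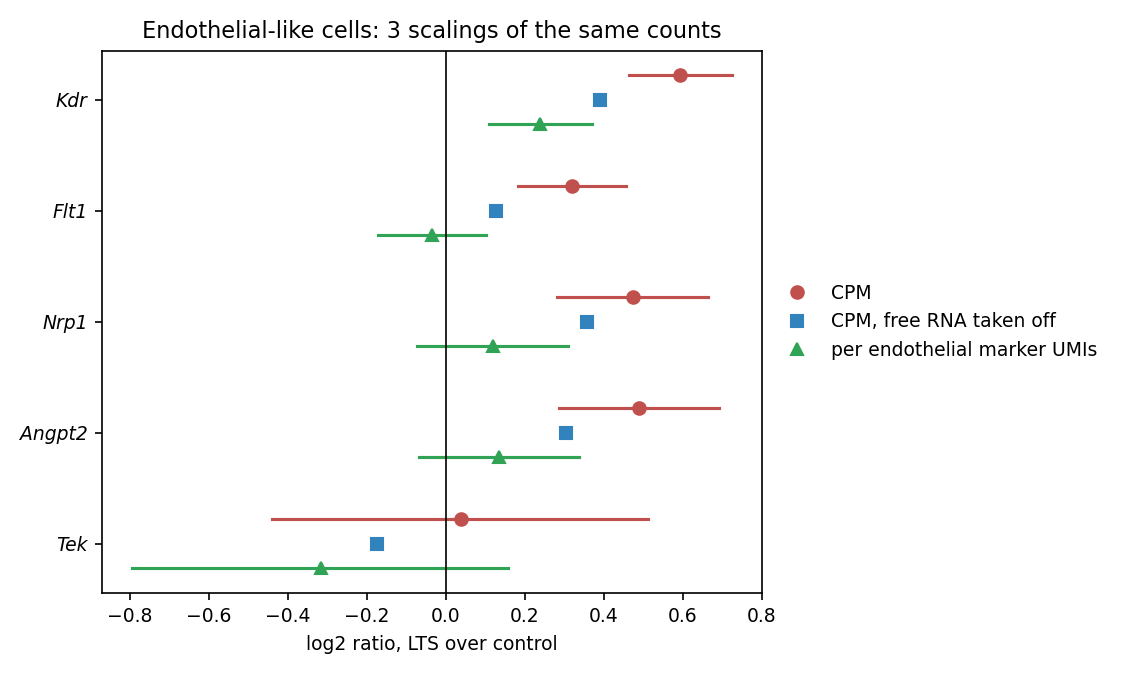
Log2 ratio of LTS over control (horizontal axis, 0 is equality) of Kdr, Flt1, Nrp1, Angpt2 and Tek in endothelial-like cells, as CPM (circles), as CPM with free RNA taken off (squares, no interval) and per UMI of the summed endothelial markers (triangles), with 95% counting intervals. The marker scale moves the 5 ratios down by the same 0.35, which puts Kdr at 0.24 and Flt1 at -0.04. The free RNA estimate behind the squares overshot for Vegfa in this class.

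The medians of single cells showed the same order, with a wide spread and with some other summaries in the opposite order. The median endothelial-like cell had 591 CPM of Kdr in LTS and 396 CPM in control, with quartiles at 315 and 861 CPM in LTS and at 133 and 645 CPM in control. For Flt1 the medians were 494 and 357 CPM, and 1 LTS cell reached 9376 CPM while the highest control cell had 2485 CPM. For Nrp1 they were 211 and 133 CPM, while its lower quartile was 18.0 CPM in LTS and 29.9 CPM in control. The highest cell was in control for Kdr (1914 CPM, against 1670 CPM in LTS) and for Nrp1 (1908 CPM, against 871 CPM). After thinning, Kdr was found in 44.6% of LTS cells (33.0 to 56.6) and 33.6% of those of control (25.9 to 41.9), and Flt1 in 48.6% (36.9 to 60.6) and 34.3% (26.5 to 42.7), so the intervals of these shares overlapped. In tumour-like cells the thinned share of Kdr was 0.116% in LTS and 0.190% in control. Without thinning Kdr was found in 87.8% of LTS and 81.1% of control endothelial-like cells, and Kdr with Flt1 in 62 of 74 and 111 of 143 cells. The unthinned shares of Flt1, 86.5% in LTS and 89.5% in control, and of Nrp1, 74.3% and 76.2%, went the other way, with overlapping intervals.

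Angpt2, the vessel-destabilizing angiopoietin, was highest in endothelial-like cells too. Angpt2 (ENSMUSG00000031465, mm10 chr8:18690263-18741562, minus strand) was at 249 CPM (226 to 273, 428 UMIs) in LTS and 177 CPM (160 to 196, 380 UMIs) in control, 1.40-fold (1.22 to 1.62). A few cells carried much of it, since 1 LTS cell held 18.5% and 1 control cell 11.6% of these UMIs, and the ratio without both cells was 1.34. The median cell had 58.6 CPM in LTS, against 0 CPM in control. Most Angpt2 UMIs nonetheless lay in tumour-like cells, the class with most UMIs of all genes. At 11.8 CPM (LTS) and 12.4 CPM (control), these cells held 71.4% and 74.7% of the Angpt2 UMIs, against 24.2% and 20.7% in endothelial-like cells. The tumour-like ratio was 0.957 (0.886 to 1.03).

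Tek (ENSMUSG00000006386, mm10 chr4:94739289-94874976, plus strand) was close to restricted to endothelial-like cells, with 70 of 76 LTS UMIs and 85 of 93 control UMIs in that class. Its level was 40.7 CPM (31.7 to 51.4) in LTS and 39.6 CPM (31.6 to 49.0) in control, 1.03-fold with an interval of 0.737 to 1.43. Microglia-like and monocyte-like cells had no Tek UMI, where 3 UMIs would be 0.565 and 0.657 CPM in microglia-like and 2.09 and 2.08 CPM in monocyte-like cells. Angpt1, the activating ligand of TEK, had 4 LTS and 11 control UMIs in endothelial-like cells, and 6.93 and 7.37 CPM in tumour-like cells.

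Cells with an Angpt2 UMI after thinning, 11 in LTS and 17 in control, had more Apln, Esm1, Kdr and Nrp1 than the other endothelial-like cells in both libraries. Apln, a peptide of sprouting tip cells, was at 1624 CPM in Angpt2-positive and 573 CPM in other LTS cells, and at 1157 and 267 CPM in control. Esm1, another tip cell gene, was at 99.6 and 24.8 CPM in LTS and at 92.6 and 13.6 CPM in control. Slco1a4, a transporter of the blood-brain barrier, was at 10.5 and 55.5 CPM in LTS and 8.41 and 48.2 CPM in control, from 2 UMIs in the positive cells of either library. Mfsd2a, a lipid transporter of the barrier, was at 21.0 and 50.3 CPM in LTS but at 63.1 and 32.5 CPM in control, with overlapping intervals in both. Kdr was at 770 and 598 CPM in LTS and at 724 and 370 CPM in control, and Nrp1 at 424 and 261 CPM and at 379 and 179 CPM. Flt1 was at 524 and 508 CPM in LTS, with overlapping intervals, and at 795 and 360 CPM in control. Tek had 3 and 7 UMIs in the positive cells, 15.7 and 29.5 CPM, against 43.8 and 40.9 CPM in the others, with overlapping intervals. Median depths were 12644 (positive) and 16428 UMIs in LTS and 12387 and 11197 UMIs in control.

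Outside the endothelium most Flt1 and Nrp1 UMIs lay in tumour-like cells, the class with most UMIs of all genes, and Kdr was scarce. These shares follow the size of the class and show no enrichment there. By level, Nrp1 was higher in microglia-like cells, at 212 CPM (LTS) and 206 CPM (control). Flt1 was at 68.3 CPM in LTS, against 67.1 CPM in control tumour-like cells, 1.02-fold (0.987 to 1.05), which made up 86.0% and 85.9% of its UMIs in kept cells. Free RNA held 37.2 and 33.4 CPM of Flt1, less than the tumour-like cells themselves, and with it taken off these were at 71.8 CPM in LTS, against 77.3 CPM in control, so the small difference turned. Monocyte-like, T cell-like and microglia-like cells had 24.4, 7.19 and 7.73 CPM of Flt1 in LTS and 16.7, 19.9 and 7.45 CPM in control, and the intervals of monocyte-like and T cell-like cells overlapped in control but not in LTS. Kdr was almost absent from tumour-like cells, with 86 LTS and 142 control UMIs, or 0.804 and 1.28 CPM (0.628-fold, 0.475 to 0.826). Free RNA alone would bring 0.752 CPM in LTS and 1.57 CPM in control, so this Kdr and its ratio cannot be told from free RNA. Nrp1 was at 100.3 CPM (98.4 to 102) in LTS and 94.3 CPM (92.5 to 96.2) in control tumour-like cells, 1.06-fold (1.03 to 1.09), and LTS was higher in 4 of 10 clusters. With free RNA taken off it was at 103 and 102 CPM. In cluster 12, led by the interferon-induced genes Ifit1 and Ifi44, Nrp1 was 1.40-fold higher in LTS (1.25 to 1.56), and in clusters 1, 6 and 7 it was at 0.908-fold, 0.842-fold and 0.820-fold with intervals below 1.

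Within the tumour, Nrp1 was highest in other clusters than Vegfa. Clusters 17, 0 and 13, which carry Postn and Prrx2, had 297, 239 and 209 CPM of Nrp1 in LTS and 304, 242 and 203 CPM in control, while the Vegfa-rich cluster 7 had 39.8 and 48.5 CPM. Across the 10 clusters Vegfa and Nrp1 had a Pearson r of -0.58 in LTS and -0.64 in control (Spearman -0.79 and -0.67), and Nrp1 and Vegfc one of 0.88 and 0.70 (Spearman 0.77 and 0.47). The clusters share libraries and differ in depth, with median UMIs of 27697.5 and 13166.5 in cluster 17 and 49059 and 23888 in cluster 7.

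Microglia-like cells had about as much Nrp1 as control endothelial-like cells, at 212 CPM (200 to 225) in LTS and 206 CPM (193 to 220) in control, 1.03-fold (0.942 to 1.12). In cluster 3 alone it was at 230.5 CPM in LTS, against 207 CPM in control, with an interval of the ratio of 0.03 to 0.28 on the log2 scale, and LTS cluster 15 had 92.3 CPM. With free RNA taken off, the whole class had 235 CPM in LTS, against 259 CPM in control, so the direction turned. The free RNA estimate behind this overshot for Vegfa in the same class. The share of thinned cells with a Nrp1 UMI went the other way, at 13.2% in LTS and 21.5% in control, so no order of the libraries is read from it. Monocyte-like cells had 87.9 CPM of Nrp1 in LTS and 78.5 CPM in control (1.12-fold, 0.862 to 1.46), and T cell-like cells 80.2 and 92.9 CPM.

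Monocyte-like cells carried small amounts of both VEGF receptors, although Flt1 in those of control cannot be told from free RNA. Kdr was at 9.77 CPM in LTS, against 20.2 CPM in control, from 14 and 29 UMIs, 0.485-fold (0.237 to 0.947). It was the 1 of 5 genes with at least 20 CPM that passed 1.5-fold in this class, where 9.71% of all 6325 genes were lower and 2.74% higher in LTS, and 1 LTS cell held 21.4% and 1 control cell 17.2% of its UMIs. Flt1 was at 24.4 and 16.7 CPM, from 35 and 24 UMIs, with an interval of 0.847 to 2.57 around 1.46-fold. Free RNA alone would bring 4.40 and 11.2 CPM of Flt1 and 0.891 and 2.26 CPM of Kdr. The counted interval of Flt1 in control, 10.7 to 24.8 CPM, took in that amount. Kdr in both libraries and Flt1 in LTS were higher, from few UMIs, in cells with a UMI of Ly6c2 after thinning. Ly6c2 is a marker of monocytes newly arrived from blood. Flt1 was at 51.2 CPM with (24 UMIs) and 11.4 CPM without Ly6c2 (11 UMIs) in LTS. In control it was at 27.3 and 10.1 CPM (15 and 9 UMIs), where the intervals overlapped. Kdr was at 25.6 and 2.07 CPM in LTS (12 and 2 UMIs) and at 40.0 and 7.87 CPM in control (22 and 7 UMIs). Vegfa was at 59.8 and 57.0 CPM in LTS and at 78.2 and 64.1 CPM in control, with overlapping intervals. An unnamed cluster of 39 LTS and 57 control cells led by Rnase6 and class II MHC genes had 56.3 and 65.7 CPM of Kdr, from 15 and 13 UMIs. In microglia-like cells Kdr was at 7.16 and 10.1 CPM and Flt1 at 7.73 and 7.45 CPM, where free RNA alone would bring 1.10 and 1.88 CPM of Kdr and 5.44 and 9.32 CPM of Flt1. The counted Kdr lay above that amount in both libraries, and Flt1 above it in LTS but below it in control.

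The other genes of the pathway were read from lists chosen with earlier results of these data known. In endothelial-like cells 11 of 20 further VEGF and angiopoietin family genes had at least 20 CPM, of which 2 were at least 1.5-fold higher in LTS and none lower, beside the 2.36% and 3.29% of all genes above. Their median log2 ratio was 0.26 and that of all genes -0.02. The 2 were Sema3f, a semaphorin, from 41 and 24 UMIs (2.13-fold, 1.26 to 3.68), and Plxna2, a semaphorin receptor (1.67-fold, 1.37 to 2.04). The smallest ratios in that list were those of Gpc1, a heparan sulphate proteoglycan, at 0.970-fold (0.632 to 1.48) and Ptprb, the phosphatase that restrains TEK, at 0.977-fold (0.876 to 1.09).

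Of 24 genes of sprouting endothelium 21 were measured, with 3 past 1.5-fold higher (2.36% of all genes), none lower (3.29%) and a median log2 ratio of 0.41 (-0.02 for all genes). Apln was at 689 CPM in LTS, against 365 CPM in control (1.89-fold, 1.72 to 2.07), Igfbp3, an insulin-like growth factor binding protein of tumour vessels, was 1.63-fold (1.48 to 1.81), and the third was Unc5b, a netrin receptor of tip cells named after its value was seen (1.67-fold, 1.14 to 2.46). Hes1, a Notch target, was at 0.819-fold (0.625 to 1.07) and Dll4, the Notch ligand that VEGF induces, at 0.987-fold (0.751 to 1.30). All 21 barrier genes were measured, with 3 higher, none lower and a median of 0.19, beside the same shares and median of all genes. These were Itm2a (1.58-fold, 1.41 to 1.76), the glutamine transporter Slc38a5 (1.52-fold, 1.33 to 1.75) and, named after its value was seen, the transcription factor Foxf2 (1.53-fold, 1.24 to 1.90). The amino acid transporter subunits Slc7a5 and Slc3a2 were at 0.700-fold (0.466 to 1.04) and 0.970-fold (0.841 to 1.12). The endothelial marker sum given above differs between the libraries in the same direction as these medians, and its part in them was not tested.

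In tumour-like cells, other angiogenic ligands and inhibitors differed little between the libraries. Of 20 ligands 7 were measured and none passed 1.5-fold, with a median log2 ratio of 0.01, from Pdgfa and Hbegf, growth factors of the PDGF and EGF families, both at 1.07-fold (1.03 to 1.11 and 1.04 to 1.10), to Angptl2 at 0.963-fold (0.941 to 0.986) and the growth factor progranulin, Grn, at 0.905-fold (0.885 to 0.926). Of 16 inhibitors 9 were measured and none passed, with a median of -0.03. Spry2, an inhibitor of growth factor signalling, was at 1.31-fold (1.23 to 1.40) and Spry4 at 1.02-fold (0.987 to 1.05). Cxcl10, an interferon-induced chemokine that restrains vessel growth, was at 0.875-fold (0.835 to 0.917), and Serpinf1, which encodes the inhibitor PEDF, at 0.927-fold (0.902 to 0.953).

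The genes whose levels ran most like each member were sought over 12 sums of cell class and library, by Pearson r of log2(CPM + 5). This likeness rests on few classes that share libraries and is a description. For Kdr they were Lrg1, Flt4 and Mcf2l (r 0.97 each), and for Tek Clec14a, Cdh2 and Erg (r above 0.99, with Tek near 0 in all other classes). Angpt2 ran most like Adamts9, Plxna2 and Rpap3 (0.99, 0.98 and 0.97), Flt1 like Lrp8, Fn1 and Ptgfrn (0.98 each), and Nrp1 like Serinc1, Pald1 and Il6st (0.94, 0.93 and 0.93). Among the ligands the likeness was lower for Vegfa, with Alcam, Trps1 and Fbxl5 (0.88, 0.86 and 0.86), and it was 0.93 and 0.91 for Vegfb with Cd9 and Asna1. Vegfc ran most like Phf5a, Atxn7l3b and Gcsh (0.96, 0.94 and 0.94) and Pgf like Ece1, Fam63a and Insr (0.97, 0.96 and 0.96), although Pgf reached at most 6.97 CPM, close to the pseudocount of 5 CPM.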

How the data were processed

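The authors deposited raw UMI counts per gene and barcode. Per the file headers they come from Cell Ranger 4, and per the submitters' processing notes the build is mm10. The annotation release is not stated. Each matrix listed 6794880 barcodes, so cells were called by the limits given above, which removed 1 LTS barcode for few genes and 604 LTS and 817 control barcodes for mitochondrially encoded UMIs. Gene positions came from GENCODE M21, matched by gene identifier.

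Library and group coincide, so cells of both were clustered jointly with no integration. After scaling to 10000 UMIs per cell and log transformation, 2000 variable genes, without 139 genes of the members and lists, gave 30 principal components and, on 15 neighbours, Leiden clusters at resolution 1 (scanpy 1.11.5, leidenalg 0.10.2, scikit-learn 1.9.0, anndata 0.12.19, numpy 2.4.6, scipy 1.17.1, pandas 2.3.3, matplotlib 3.10.9, python 3.11.15). A class named a cluster where at least 3 of its markers were in 10% or more of the cells, at 2 times their level elsewhere. For the tumour class the comparison was with the Ptprc-rich immune clusters only. Ptprc and Y-linked transcripts also had to be under 10% of their level in those clusters. Clusters with mixed markers stayed unnamed. So did clusters with UMIs under 0.333 of their library's median, unless a marker of their class was among their 10 leading genes, an exception not made for tumour. Unnamed were 5 clusters with 675 LTS and 1576 control cells. Several named clusters lay under this depth, among them the monocyte-like (median 5437 UMIs in LTS and 3110 in control) and T cell-like ones (3231 and 2101). Microglia-like cluster 15 did too (2974.5 and 2106). Scrublet marked 68 LTS cells (1.41%) and 0 control cells, was taken not to have worked on control, and no cell was removed as a doublet.

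Counts were summed per class and library and scaled to CPM. Levels carry exact Poisson intervals, ratios exact conditional ones and shares exact binomial (Clopper-Pearson) ones. Ratios of single genes carry no pseudocount, while counts of genes past 1.5-fold and list medians use log2(CPM + 5). Free RNA was estimated from barcodes with 1 to 100 UMIs, at the amount that leaves no UMIs of genes foreign to a class, and what it alone would bring of a gene is that share of the gene's CPM in it. In endothelial-like and microglia-like cells this came to more Vegfa than was counted, so the estimate can be too high. Directions that turned and ratios that changed in size with free RNA taken off depend on it. Ratio intervals and the 1.5-fold limit were run on simulated Poisson counts with randomly chosen genes changed. These counts held no spread between cells, free RNA or clustering, so the run cannot speak to those limits. The genes named are the 9 members, from each of 6 lists the 2 highest and the 2 lowest ratios in 1 class, and the 3 genes most like each member, of which 1 is not reported here. Hif1a, Ndrg1, Unc5b, Foxf2, Angpt1, Esm1, Slco1a4 and Mfsd2a fall outside this rule and were chosen after their values were seen. The 9 genes, lists and markers were chosen with earlier results of these data known, and 3 list genes were matched through current symbols. Groups came from the labels of the 2 libraries.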

Additional observations from a re-analysis of the deposited data

How the results depend on the processing

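All values here are log2 ratios of LTS over control without a pseudocount unless named otherwise. Of 175 alternative values of ratios, 15 turned in sign, of which 2 belong to ratios whose interval did not take in equality. The other 13 belong to ratios whose interval did, and 6 of them are Tek in endothelial-like cells. Of the values that answer a comparison, list counts included, 21 left the interval of the ratio or moved a count by over 1.5 times, beside 1 turn in sign, that of Flt1 on the marker scale, where the interval did not take in equality. At a minimum of 500 UMIs, Vegfa in tumour-like cells was at 0.39 and not 0.25, and Vegfc there turned to 0.0076. With free RNA taken off, Vegfa was at 0.50 in tumour-like and 0.23 in monocyte-like cells, and in endothelial-like cells Kdr was at 0.39 and Flt1 at 0.13. The free RNA estimate overshot for Vegfa in endothelial-like cells, so the values there depend on it. No value could be given for Vegfa in microglia-like cells under that setting. When cells weighed equally, Vegfa in microglia-like cells was at 0.15, and in endothelial-like cells Flt1 was at 0.54 and Nrp1 at 0.11. At clustering resolution 2, endothelial-like Kdr was at 0.41, Flt1 at 0.17, Nrp1 at 0.19, with an interval that took in equality, and Angpt2 at 0.27. Scaled to endothelial markers, which lowers each ratio by the same 0.35, Kdr was at 0.24, Nrp1 at 0.12, Angpt2 at 0.13 and Flt1 at -0.035. Without the cluster of highest Vegfa, tumour-like Vegfa was at 0.19. Except where an alternative is built on fewer cells or another denominator, the cause was not tested. The family list had 1 gene past the fold at a minimum of 50 CPM and 0 at a fold of 2, where the sprouting and barrier lists also had 0, and the hypoxia list had 1, Hk2, at a pseudocount of 1 CPM. No paired analysis was possible because each group has 1 library. The endothelial-like values rest on 74 LTS and 143 control cells, and no interval covers variation between animals.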
